A study of Mus musculus with 10 samples.

Results

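The mouse Clariom D array summarises its probes into transcript clusters, each meant to stand for 1 transcribed locus, and many of these clusters have no gene name. Of the 65956 clusters whose id starts with TC or TS, 33142 (50.2%) carried no gene symbol in the platform annotation, and these are described here. Another 30932 clusters carried 1 symbol and 1882 carried several. The rule uses the absence of a symbol and no level or difference between samples. Levels were read in 10 samples of pooled mouse oocytes, of which 2 were wild-type (WT) and 3 Patl2-/- at the germinal vesicle (GV) stage, and 2 were WT and 3 Patl2-/- at metaphase II (MII). A cluster was taken as measurable when its log2 level, averaged over the 10 arrays, reached 6, which left 4149 members.

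The Patl2-/- mice were homozygous for a deletion of exon 7 in a tm1a allele (C57BL/6NTac background), made by crossing to EIIaCre animals, whose transgene acts in the early embryo and so reaches most tissues and the germ line. The WT mice lacked this deletion, and every female received 5 UI of PMSG. GV oocytes were taken 44 hours later from the ovary of females stated to be 3 to 8 weeks old. MII oocytes were taken 12 hours after an injection of 5 UI of hCG, which was given 48 hours after PMSG; this hour and the oocyte numbers are those of the labels, and the study's methods give a slightly later hour and a higher minimum for MII. Follicular cells were removed with hyaluronidase and a pipette, and each sample held 20 to 32 GV or 28 to 46 MII oocytes, from which 250 pg of RNA was labelled. The samples are called biological replicates in the labels, but the animals behind each pool are not listed, so p-values measure the spread between these pools.

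Clusters without a symbol come from expressed sequence tags, computed gene models and non-coding RNA collections, and they can hold unannotated exons, long non-coding RNAs, antisense transcripts or copies of repeated elements. A fully grown mouse oocyte makes almost no new RNA, and during the passage from GV to MII a large part of its stored maternal RNA is cleared while some messages gain poly(A) tails. Transcripts that start in retrotransposon repeats are a known feature of mouse oocytes. Patl2 is a putative RNA-binding protein of the oocyte cytoplasm. No table used here gives the sequence or repeat class of a member, so members are named by their id, whose first characters after TC give a chromosome code; the ending that all ids share is left out.

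Arrays of 1 group correlated at 0.989 or more across clusters, and Patl2 itself lay between 8.55 and 11.70 on the log2 scale in WT and between 6.10 and 8.07 in Patl2-/- oocytes. All 11 measured oocyte markers were at 8 or above in each group, whereas the median of 11 granulosa and cumulus cell markers was 5.48 to 5.83. The members of that list at 8 or above in a group were Nr5a2 (9.26 to 9.70 over the 4 group means) and Inha, which averaged 9.40 in WT GV, 10.56 in Patl2-/- GV, 6.05 in WT MII and 7.97 in Patl2-/- MII oocytes. Among 7 measured markers of theca, stroma, vessel and blood, Pecam1 alone reached 8. On each array 90% of the 5222 negative control rows lay under a level of 6.14 to 6.46, and 3478 of the 4149 members (83.8%) had a mean level over 6.46.

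Most clusters without a symbol were dim, yet many of the brightest clusters of the array were theirs. Their median level was 4.18 (interquartile range 3.80 to 4.85), against 5.07 for clusters with 1 symbol, and 12.5% of them reached a mean level of 6 against 37.0% of clusters with 1 symbol. Their share rose at the highest levels. Members made up 25.4% of all clusters at 6 or above, 28.8% at 12 or above, 52.7% (303 of 575) at 15 or above and 77.9% (67 of 86) at 17 or above. Many of these carry the values of another cluster: at 15 or above, members held 209 distinct profiles and clusters with 1 symbol 239, and at 17 or above the 67 members held 28. The members nearest the limit of 6 were TC1200001231 at 5.9985 below it and TC1300001163 at 6.0001 above it.

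TC0700000676 was the brightest cluster of all. It read 18.14 and 18.29 in WT GV, 17.99, 18.20 and 18.10 in Patl2-/- GV, 18.30 and 18.14 in WT MII, and 18.14, 18.14 and 18.19 in Patl2-/- MII oocytes, so its groups overlapped throughout and no comparison called it. TC0200002613 followed with a mean of 17.71. Its level was 17.88 and 17.89 in WT GV against 17.43 and 17.36 in WT MII oocytes, and 17.95 to 18.05 against 17.40 to 17.62 in Patl2-/- oocytes. This small decrease was called in WT (-0.49 ± 0.09 on the log2 scale, standard error, adjusted p = 0.0126) and in Patl2-/- oocytes (-0.50 ± 0.07, adjusted p = 0.00295). The next 2, TCUn_GL45638500000002 on an unplaced contig (17.70) and TC0500003707 (17.68), differed by 0.20 or less on the log2 scale in every comparison, and 5 clusters on 5 chromosome codes shared the values of the latter.

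The share of measurable members depended on the chromosome code. Across the autosomes it ran from 9.55% (chromosome code 16) to 272 of 1810 (code 10), while for clusters with 1 symbol it ran from 28.8% (code 7) to 46.2% (code 5). Code X stood at 17.4% for members (239 of 1371) and at 32.4% for clusters with 1 symbol. Females carry no Y chromosome, yet 9 of 300 members on code Y (3.0%) read 6 or more, beside 4 of 124 clusters with 1 symbol (3.23%). The highest of the 9, at 11.38, had the values of a profile shared by 30 clusters on 14 codes, so its signal is not particular to Y. All 19 members on the mitochondrial code were at 6 or above, and so were 69 of the 101 members on unplaced or random contigs (68.3%), against 37.0% of the 27 contig clusters with 1 symbol. No test was made of these shares, because clusters are not a sample and many share a signal.

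**Figure D1:**
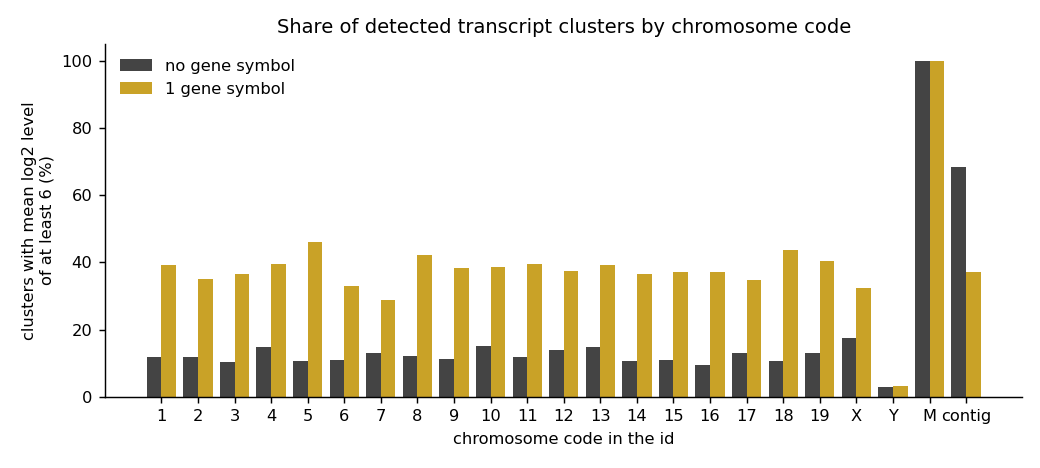
Percent of transcript clusters whose log2 level averaged 6 or more over the 10 arrays (y axis) by the chromosome code in the id (x axis), for clusters without a gene symbol (dark bars) and with 1 gene symbol (yellow bars). Members lie below clusters with 1 symbol on every autosome and on X, and above them on contigs (68.3% against 37.0%), with every mitochondrial cluster of either kind at 6 or above.

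Ids that start with TS were few. Of the members 21 had one, and 2 of these (9.52%) reached a level of 6, against 12.5% of the 33121 TC ids. TSUnmapped00000096 averaged 16.19 and read 16.25 and 16.42 in WT GV, 15.73, 16.60 and 15.75 in Patl2-/- GV, 16.17 and 16.45 in WT MII, and 16.17 on each Patl2-/- MII array, with overlapping groups. TSUnmapped00000095 read 12.36 and 11.62 in WT GV, 10.41, 10.78 and 11.67 in Patl2-/- GV, 10.45 and 11.40 in WT MII, and 10.13, 10.32 and 9.72 in Patl2-/- MII oocytes. Its MII arrays of the mutant were below all others, but no difference passed the test (adjusted p = 0.192 for the genotype averaged over both stages). The other 19 TS members were below 6.

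A large group of members did not carry values of their own. At a level of 6 or above, 492 of the 4149 members (11.9%) had exactly the same value as at least 1 other cluster on all 10 arrays, against 174 of 11444 clusters with 1 symbol (1.52%). At 17 or above it was 45 of the 67 members. Of 193 such groups made of members alone, at any level, 67 (34.7%) spanned 2 or more chromosome codes. The widest was shared by 63 clusters on 18 chromosome codes, another by 35 clusters on 17 codes, and another by 30 clusters on 14 codes. Members with equal values are 1 measurement, not several, so counts below are also given with each distinct profile counted once.

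The profile of those 63 clusters (first id TC0100000118) stood at 12.66 and 12.92 in WT GV, 13.19, 11.63 and 12.45 in Patl2-/- GV, 10.76 and 10.22 in WT MII, and 9.35, 8.76 and 9.37 in Patl2-/- MII oocytes. GV and MII arrays did not overlap in either genotype, and the mutant MII arrays lay below the WT ones. Such separation was common with so few arrays. Of all clusters at 6 or above, 66.5% did not overlap between stages in WT and 56.1% in Patl2-/- oocytes. Between genotypes, 32.0% did not overlap at GV and 47.0% at MII. MII was lower than GV on the log2 scale in WT (-2.30 ± 0.46, adjusted p = 0.0206) and in Patl2-/- oocytes (-3.27 ± 0.37, adjusted p = 0.00102), and the genotype difference at MII was not called (-1.33 ± 0.42, adjusted p = 0.225). Leaving out WT GV replicate 1 or 2 or WT MII replicate 1 or 2 ended the WT call (adjusted p of 0.0693, 0.104, 0.0698 and 0.113). The profiles of 35 clusters (first id TC0100001122), of 30 (TC0100000955), of 20 (TC0100002931) and of 10 (TC0100001321) had nearly the same course, at mean levels of 10.38 to 11.92, with differences of -2.67 to -2.19 in WT and of -3.58 to -2.89 in Patl2-/- oocytes. In all of these, Patl2-/- GV replicate 2 was the lowest GV array. A profile of 18 clusters (TC0100001325) and 1 of 13 (TC0300000439) had a like course but were not called in WT (-2.36, adjusted p = 0.087, and -2.15, adjusted p = 0.0707), and 7 of the 13 profiles of 10 or more clusters were called lower in WT.

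Other shared profiles had a different course. A profile of 26 clusters (TC0100000722) near 15.12 was called lower at MII in WT (-1.38, adjusted p = 0.0132) and in Patl2-/- oocytes (-1.23, adjusted p = 0.00614). Those of 18 clusters at 17.32 (TC0100001918) and of 15 clusters at 17.66 (TC0100000579) differed by 0.39 or less in the maturation comparisons and were not called, although every MII array of the former lay below every GV array of its genotype. The profile of 13 clusters on 2 codes (TC0100000728) varied within its groups, with 10.35 and 12.69 in the WT GV arrays and 10.17, 12.85 and 10.68 in the Patl2-/- GV arrays, and its maturation difference of -1.46 in WT had an adjusted p of 0.51. These 13 profiles of 10 or more clusters were picked after their values were seen.

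**Figure D2:**
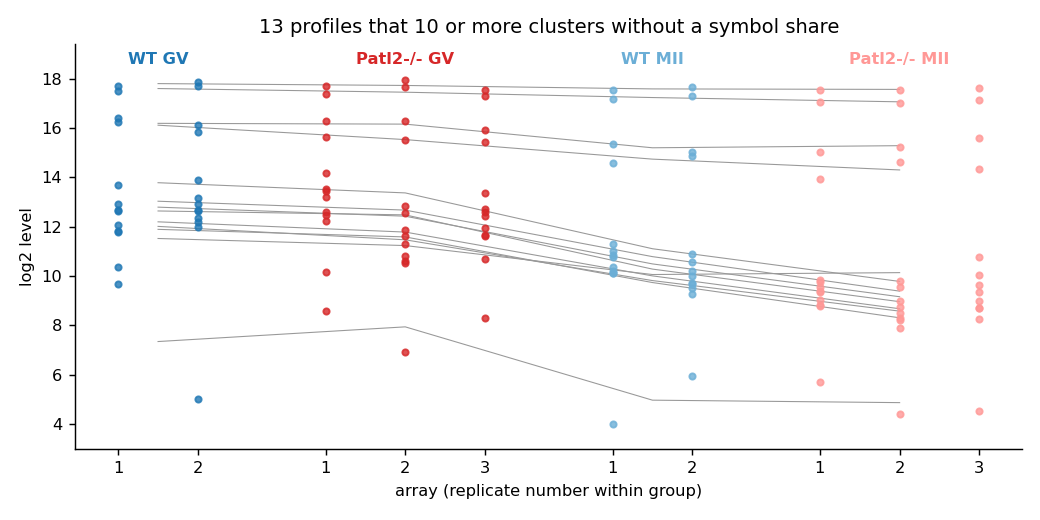
Log2 level (y axis) on each array (x axis, replicate number within the group) of the 13 profiles that 10 or more clusters without a symbol share, with 1 point per profile and array and grey lines joining the group means of a profile. Most profiles with levels of 10 to 14 in GV oocytes lie lower in MII oocytes, while those above 17 differ by 0.39 or less between stages.

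Near-identity reached further than exact identity. With a tolerance of 0.1 on every array, 458 of the 2212 members at 8 or above (20.7%) fell into 60 families of 2 or more, 13 of which held 10 or more clusters, and 311 clusters lay in these 13. The largest had 66 members. Of 6587 clusters with 1 symbol at that level, 1.38% fell into such families and the largest had 6.

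During maturation of WT oocytes the members moved mainly downward. Of 4149 members, 1006 were lower and 147 were higher in MII than in GV oocytes at an adjusted p under 0.05, which is 24.2% and 3.54%. The background over all 16316 clusters at 6 or above was 17.4% lower and 6.2% higher, and for clusters with 1 symbol it was 14.4% lower and 7.22% higher. Among the latter, the 2567 with a predicted-gene symbol (Gm or Rik) were 24.7% lower, a share close to that of the members, and 6.35% higher. The median difference was -0.28 for members and 0.01 for clusters with 1 symbol on the log2 scale, and 506 members were called with a decrease of at least 2 on that scale. Counted once per profile, there were 756 lower and 146 higher among 3745 distinct profiles, so part of the 24.2% rests on repeated values. On each of the 19 autosomal codes more members were called lower than higher. Profiles shared across codes are counted on each of them, so the codes are not separate evidence.

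The split of these calls rested on the scale of the arrays. A further quantile normalization raised the median WT difference of all clusters at 6 or above from -0.05 to 0.28, and the calls became 775 lower and 503 higher (60.6% lower in place of 87.3%), with the median member at 0.04 and the median cluster with 1 symbol at 0.34. Members were then still called lower more often than clusters with 1 symbol (18.7% against 10.9%) and higher less often (12.1% against 30.7%). In place of 1153 calls in WT there were 692 or 721 when the first or the second WT GV array was left out, 527 or 621 when the first or the second WT MII array was, and 161 when the WT arrays alone were fitted.

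In Patl2-/- oocytes 1259 members (30.3%) were lower and 215 (5.18%) were higher at MII, against a background of 22.2% lower and 11.2% higher over all clusters at 6 or above. Clusters with a predicted-gene symbol were 28.1% lower, a share close to that of the members, and 11.6% higher. Once per profile these were 977 and 214 among 3745 distinct profiles. Here the further quantile normalization gave 960 lower and 646 higher (59.8% lower in place of 85.4%). The mutant groups hold 3 arrays and the WT groups 2, so the counts of the genotypes are not set against each other. Of the 1006 members lower in WT, 918 were also lower in Patl2-/- oocytes (91.3% of the WT calls and 72.9% of the mutant calls), of the 147 higher ones 90 were (61.2% and 41.9%), and none was called in opposite directions. For clusters with 1 symbol at 6 or above these shares were 87.1% and 67.1% of the lower calls, and 69.7% and 37.3% of the higher ones.

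**Figure D3:**
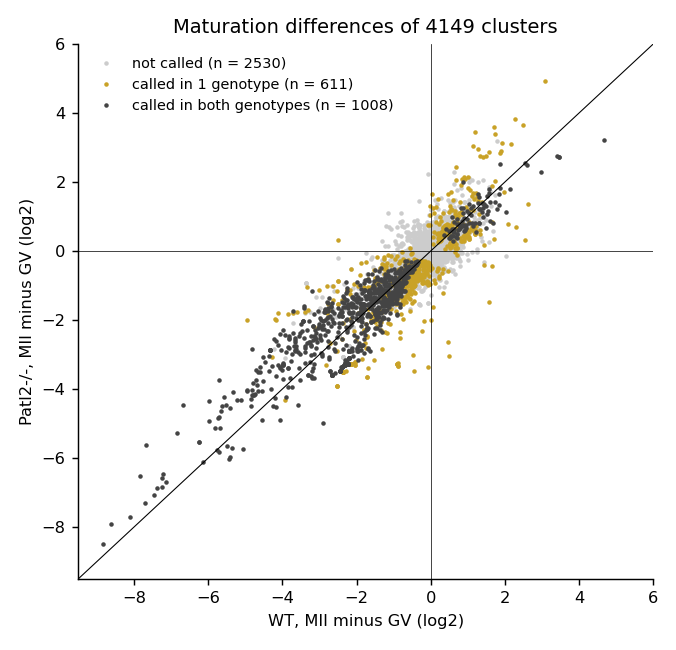
Difference between MII and GV oocytes on the log2 scale in WT (x axis) and in Patl2-/- oocytes (y axis) for the 4149 clusters without a symbol at a mean level of at least 6, with the line of equal differences. The 1008 clusters called in both genotypes have the same sign in both, and 611 were called in 1 genotype only.

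The share of decreases differed between levels, without a steady order. Among members at 6 to 8, 14.5% were called lower in WT and 2.12% higher. At 10 to 12 it was 41.2% and 4.51%, with a median of -1.06, at 12 to 15 it was 33.1% and 8.87%, with a median of -0.26, and at 15 or above it was 47.2% and 1.32%. Clusters with 1 symbol were called lower in 12.4% of cases at 6 to 8, in 18.0% at 10 to 12 and in fewer at 15 or above than in any lower range. The range of 10 to 12 holds most clusters of the large shared profiles, the one of 63 clusters included, and each cluster is counted here.

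**Figure D4:**
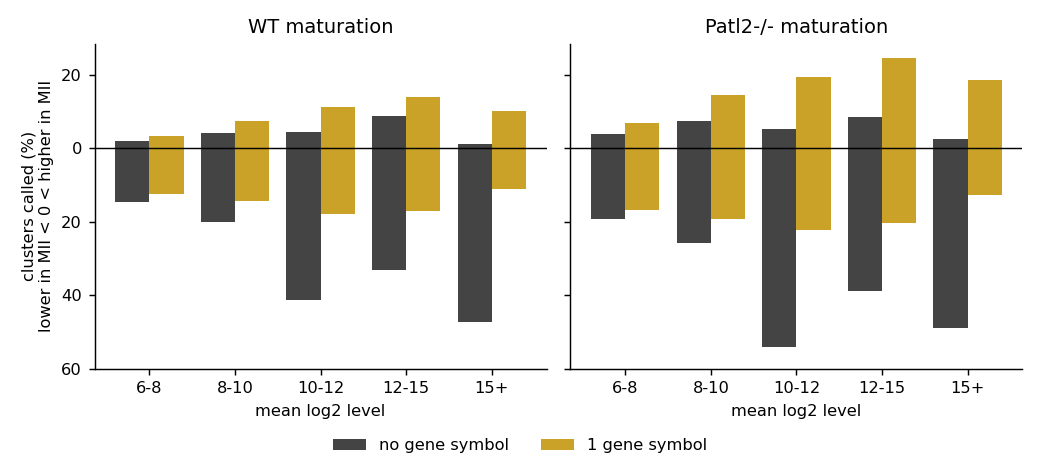
Percent of clusters called lower (bars down) and higher (bars up) at MII than at GV, by range of mean log2 level (x axis), in WT (left) and Patl2-/- oocytes (right), for clusters without a symbol (dark) and with 1 symbol (yellow). From 10 upward, 33.1% to 47.2% of members were called lower in WT against at most 18.0% of clusters with 1 symbol. Each cluster is counted, also where several share all their values, so these percentages of members are not shares of separate measurements.

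Among the steep decreases were those of 8 members with consecutive ids, TC0900000001 to TC0900000008, the lowest numbers of code 9, all with distinct profiles. TC0900000003 read 16.55 and 15.09 in WT GV, 16.13, 15.67 and 15.18 in Patl2-/- GV, 7.32 and 6.63 in WT MII, and 4.86, 10.05 and 6.61 in Patl2-/- MII oocytes. The stages did not overlap, and Patl2-/- MII replicate 2 was the highest of the MII arrays. The difference was -8.84 ± 1.40 in WT (adjusted p = 0.00787, 459-fold) and -8.49 ± 1.14 in Patl2-/- oocytes (adjusted p = 0.00246); the WT call was narrowly lost without WT MII replicate 1 (adjusted p = 0.0504) or 2 (0.0543). Over the 8 clusters the median level was 12.19 to 13.75 on the GV arrays, 5.31 and 5.79 in WT MII, and 4.86, 7.42 and 5.03 in Patl2-/- MII oocytes. All 8 were called in both genotypes, with differences of -8.84 to -7.14 in WT and -8.49 to -6.59 in Patl2-/-, and most of their MII values lay at or below the range of the negative controls, where a fold is uncertain. The run was picked after its values were seen.

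TC0200004196 had a like course, with 15.42 and 13.63 in WT GV, 14.53, 14.52 and 13.74 in Patl2-/- GV, 5.78 and 6.01 in WT MII, and 4.71, 9.81 and 4.51 in Patl2-/- MII oocytes. Here too Patl2-/- MII replicate 2 stood apart from the other MII arrays. Its difference was -8.63 ± 1.58 in WT (adjusted p = 0.015) and -7.92 ± 1.29 in Patl2-/- oocytes (adjusted p = 0.00614). The WT call was lost without WT GV replicate 1 (adjusted p = 0.0831), WT MII replicate 1 (0.0929) or WT MII replicate 2 (0.073). Its MII values, that replicate apart, were below 6.14, a level that 90% of the negative controls do not pass, so the size of the decrease is uncertain here too. The nearest named cluster by id number, Gm13803, 2 numbers away, differed by 0.44 in WT and was not called. For TC0900000003 the nearest was Alkbh8, 10 numbers away, at -0.33 and not called. On a code, 99.1% of neighbouring named ids ascend along the chromosome. A numbering that restarts within a code could reach this share too, so the nearest number need not be the nearest gene. Distances in bases are not known here.

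Increases were fewer and smaller. TC0100003482 rose from 9.94 and 11.15 in WT GV to 15.19 and 15.25 in WT MII, and from 8.67, 11.57 and 10.42 to 13.41, 13.28 and 13.66 in Patl2-/- oocytes. The stages did not overlap, the GV arrays were scattered, and the mutant MII arrays were below the WT ones. The increase was 4.67 ± 0.80 in WT (adjusted p = 0.0109) and 3.23 ± 0.65 in Patl2-/- oocytes (adjusted p = 0.0167), while the genotype difference at MII had an adjusted p of 0.378. The WT call was lost without WT GV replicate 1 (adjusted p = 0.0659) or WT MII replicate 1 (0.0703) or 2 (0.0627). TC0400001746, whose values 1 other cluster shares, rose in WT by 3.46 ± 0.78 (adjusted p = 0.0358). Its arrays read 12.82 and 13.92 against 16.86 and 16.80, and leaving out any array but Patl2-/- GV replicate 1 or 2 ended the call (adjusted p up to 0.17, without WT GV replicate 1). The nearest named ids were Mgst3, a membrane-bound glutathione transferase, at 0.18 and not called, and Akr7a5, an aldehyde reductase, which fell (-1.19, adjusted p = 0.000337).

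In Patl2-/- oocytes the largest fitted increases were those of TC1900000899 and TC1100003460. TC1900000899 read 6.05, 5.81 and 5.63 in Patl2-/- GV against 9.42, 11.76 and 11.06 in Patl2-/- MII oocytes, an increase of 4.92 ± 0.73 (adjusted p = 0.00395) whose size is uncertain, since all GV values of both genotypes were under 6.46, the highest of the negative control levels given above. Its WT arrays read 6.16 and 4.92 against 9.78 and 7.45, and this difference was not called (3.07 ± 0.90, adjusted p = 0.0936). TC1100003460 went from 8.09, 8.30 and 7.78 to 10.76, 12.96 and 11.95 (3.84 ± 0.63, adjusted p = 0.00631), and in WT from 8.62 and 7.22 to 10.96 and 9.41 (2.26 ± 0.77, adjusted p = 0.152). Patl2-/- MII replicate 2 was the highest MII array for both. The maturation difference between genotypes was not called for either (adjusted p = 0.875 and 0.877).

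Members on the mitochondrial code moved the other way. Its 19 members without a symbol ranged from 6.88 to 15.80 in mean level, and 8 were higher and none lower at MII in WT, with 13 higher and none lower in Patl2-/- oocytes. Of all clusters at 6 or above, 6.2% were called higher and 17.4% lower in WT, and 11.2% and 22.2% in Patl2-/- oocytes. The median difference of the 19 was 1.29 and 1.24 on the log2 scale, against -0.28 and -0.29 for all members. The tables of the study name 13 of the 19 as mitochondrial tRNAs, the adaptors with which the organelle translates its own messages. Because those tables list clusters that had changed on these arrays, the names add no independent evidence. These names and groups on the mitochondrial code were picked after their values were seen. The 13 lay above 0 in both genotypes without exception, by 0.87 to 2.59 in WT (7 called) and 0.58 to 2.54 in Patl2-/- oocytes (12 called), whereas 4 of the 6 others lay above 0 in WT and 3 in Patl2-/-, with 1 called in each.

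The cluster named mt-Th, the histidine tRNA (TC0M00000014), read 12.20 and 13.42 in WT GV, 11.83, 11.90 and 12.01 in Patl2-/- GV, 15.11 and 15.59 in WT MII, and 14.46, 14.49 and 14.42 in Patl2-/- MII oocytes. MII arrays were above GV arrays in both genotypes, and at each stage the WT arrays were above the mutant ones. The increase was 2.54 ± 0.34 in WT (adjusted p = 0.00321) and 2.54 ± 0.27 in Patl2-/- oocytes (adjusted p = 0.000831). For mt-Tv, the valine tRNA (TC0M00000003), the arrays read 12.66 and 13.27 in WT GV, 14.94 and 15.24 in WT MII, 12.59, 12.60 and 12.33 in Patl2-/- GV and 14.11, 14.45 and 14.40 in Patl2-/- MII oocytes. It rose by 2.13 ± 0.22 in WT (adjusted p = 0.000827) and by 1.81 ± 0.18 in Patl2-/- oocytes (adjusted p = 0.00051). Its neighbour in numbering, mt-Rnr1, the small ribosomal RNA of the organelle, did not pass the test (-0.31 and 0.12), nor did COX1 (0.06 and 0.12). Of the 7 clusters with 1 symbol on this code, 4 were called higher at MII in WT and 3 in Patl2-/- oocytes, and none lower. They included mt-Tk, the lysine tRNA (1.18 and 2.31), but also the messages ND2 (1.35 and 1.00) and ND3 (1.83 and 2.21), the neighbour of mt-Th in numbering. The rise was therefore not confined to tRNAs.

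All 13 tRNA clusters also had lower group means in Patl2-/- than in WT oocytes at GV (-1.84 to -0.25) and at MII (-1.71 to -0.13). None was called at GV, 1 was called at MII (mt-Tc, the cysteine tRNA, -1.71 ± 0.27, adjusted p = 0.0394), and 4 were called in the average over both stages, where 0.264%, 1.59% and 3.82% of all clusters at 6 or above were called lower. Of the 6 other members on this code, 4 lay above 0 at each stage (medians 0.39 at GV and 0.09 at MII), and none was called. The 13 are set apart by names from tables of clusters that had changed on these arrays. Their contrast with the other 6 and with all clusters is therefore shaped by that choice, and nothing is concluded from it. The largest average was that of mt-Tf, the phenylalanine tRNA (-1.52 ± 0.20, adjusted p = 0.0143), with 11.00 and 11.21 in WT GV against 8.90, 9.75 and 9.13 in Patl2-/- GV, and 12.64 and 13.31 in WT MII against 11.57, 11.72 and 12.02 in Patl2-/- MII oocytes. The genotypes of this cluster did not overlap at either stage.

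Of the 33142 members, 69 carry a name in the study's tables, 67 of them at a level of 6 or above, with the same limit on what the names can support. In WT 15 were higher and 26 lower at MII, and in Patl2-/- oocytes 26 were higher and 32 lower, beside 6.2% higher and 17.4% lower, and 11.2% and 22.2%, of all clusters at 6 or above; nothing is read from this, since the tables list changed clusters. The brightest were 2 clusters named Metazoa_SRP, the RNA of the signal recognition particle. TC1200000561 averaged 15.96 in WT GV and 17.16 in WT MII (1.21 ± 0.42, adjusted p = 0.157), and TC1200001864 averaged 15.63 and 16.83 (1.20 ± 0.45, adjusted p = 0.196), so neither was called.

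Fbrsl1 (TC0500002992) read 11.16 and 13.78 on the WT GV arrays and 14.08 and 14.32 on the WT MII arrays, and was not called in WT (1.73 ± 0.67, adjusted p = 0.213) or in Patl2-/- oocytes (1.63 ± 0.55, adjusted p = 0.113). The cluster that the tables name Mir5111 (TC0200005014) fell from 15.29 and 15.19 in WT GV to 10.54 and 11.21 in WT MII (-4.36 ± 0.31, adjusted p = 0.000143), and from 15.38, 15.51 and 15.20 to 11.42, 11.81 and 12.37 in Patl2-/- oocytes (-3.49 ± 0.25, adjusted p = 0.000115).

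Genotype differences among members were few. At GV, 5 members (0.121%) were higher and 5 (0.121%) lower in Patl2-/- oocytes, against a background of 0.116% higher and 0.264% lower over all clusters at 6 or above. At MII, 32 (0.771%) were higher and 44 (1.06%) lower, against 1.38% and 1.59%. In the average over both stages 66 (1.59%) were higher and 98 (2.36%) lower, against 2.83% and 3.82%. Members were therefore called no more often than clusters at large in these comparisons, except for higher at GV, where the shares were about equal. With only the arrays compared in the fit, no member was called at GV or at MII (limma in both cases). Single arrays weighed on these counts. The 10 calls at GV became 2 when WT GV replicate 2, either WT MII array or Patl2-/- GV replicate 3 was left out, 3 and 5 for Patl2-/- MII replicates 1 and 2, and 0 for Patl2-/- GV replicate 1. The 76 calls at MII became 2 and 19 for WT MII replicates 1 and 2, 28 for Patl2-/- GV replicate 3, and 31, 8 and 10 for the 3 Patl2-/- MII arrays. The 164 calls of the average became 71 for WT GV replicate 2, 55 and 44 for the WT MII arrays, 102 for Patl2-/- GV replicate 3, and 92, 93 and 81 for the Patl2-/- MII arrays. The spiked bacterial and phage hybridisation controls averaged 11.25 to 11.46 on the WT and 11.58 to 11.98 on the Patl2-/- arrays, without overlap, and their part in the genotype results was not tested. All 5 members higher at GV were also called higher at MII (TC0400003159, TC0X00003278, TC1200000210, TC1600001843 and TC1900001301), and TC0X00000003 was called lower at both. Of these, TC0X00003278, TC1600001843 and TC1900001301 were chosen after their values were seen.

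TC0X00000003 had the largest decrease of the mutant at GV. It read 13.32 and 13.67 in WT GV against 10.55, 9.90 and 10.43 in Patl2-/- GV, and 10.95 and 11.33 in WT MII against 8.75, 8.76 and 9.47 in Patl2-/- MII oocytes. WT arrays were above mutant arrays at each stage without overlap, which was a condition for printing the largest differences. Of all clusters at 6 or above, 32.0% did not overlap between genotypes at GV and 47.0% at MII. The difference was -3.21 ± 0.28 at GV (adjusted p = 0.0162, 9.23-fold), -2.14 ± 0.28 at MII (adjusted p = 0.025) and -2.67 ± 0.20 in the average (adjusted p = 0.00244), and the average stayed called under all 15 alternatives tried. The GV call was lost without WT GV replicate 2 (adjusted p = 0.0863), Patl2-/- GV replicate 1 (0.0539) or Patl2-/- GV replicate 3 (0.0576). Its neighbour in numbering, Gm14334, was at 4.04 and differed by 0.01 at GV. TC0200002285 was near the lower limit of measurement, with 8.01 and 8.35 in WT GV against 6.29, 6.25 and 6.41 in Patl2-/- GV (-1.86 ± 0.17, adjusted p = 0.018) and 6.05 and 5.98 against 5.48, 6.05 and 5.86 at MII (-0.22, adjusted p = 0.689). Its GV call was lost without WT GV replicate 2 (adjusted p = 0.0872), Patl2-/- GV replicate 1 (0.087) or 3 (0.0604), or either WT MII array (0.0508).

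TC1200000210 was the member most raised in the mutant at GV, with 7.01 and 6.99 in WT GV against 9.09, 9.19 and 9.25 in Patl2-/- GV, and 7.52 and 8.17 in WT MII against 9.46, 9.44 and 9.53 in Patl2-/- MII oocytes. Mutant arrays were above WT arrays at each stage and close to one another. It was higher by 2.18 ± 0.16 at GV (adjusted p = 0.0126), by 1.63 ± 0.16 at MII (adjusted p = 0.0122) and by 1.91 ± 0.12 in the average (adjusted p = 0.00208). Its GV call was lost without WT GV replicate 2 (adjusted p = 0.0589) or Patl2-/- GV replicate 1 (0.0539), while the average stayed called under all 15 alternatives. The next id in number is Kidins220, a membrane scaffold protein gene, which differed by 0.24 at GV and was not called. TC0400003159 read 9.32 and 9.05 in WT GV against 10.32, 10.82 and 10.40 in Patl2-/- GV, and 9.34 and 9.20 against 10.46, 10.38 and 10.63 at MII, again without overlap. Its differences were 1.33 ± 0.16 at GV (adjusted p = 0.0408) and 1.22 ± 0.16 at MII (adjusted p = 0.0259), and the GV call was lost under 12 of 16 alternatives, among them leaving out any array but Patl2-/- GV replicate 2 (adjusted p of 0.0644 to 0.145).

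At MII the largest increase of the mutant was that of TC1000000237, among the brightest members of GV oocytes. It read 17.45 and 17.80 in WT GV and 17.93, 17.86 and 17.94 in Patl2-/- GV, but 11.33 and 10.55 in WT MII against 13.42, 13.57 and 13.37 in Patl2-/- MII oocytes. The stages were far apart, the GV arrays of the genotypes were close, and at MII every mutant array was above both WT arrays. MII was lower than GV in WT (-6.69 ± 0.23, adjusted p = 1.85e-05) and in Patl2-/- oocytes (-4.46 ± 0.19, adjusted p = 2.24e-05), and the genotype difference at MII was 2.51 ± 0.21 (adjusted p = 0.00953). The difference between the 2 decreases was 2.23 ± 0.29 with an unadjusted p of 6.43e-05 and an adjusted p of 0.335, which did not pass. Arhgap18, 3 numbers away, differed by 0.20 at MII and was not called. TC0900002645 read 9.32 and 9.71 in WT MII against 11.39, 11.62 and 11.86 in Patl2-/- MII oocytes (2.11 ± 0.19, adjusted p = 0.0113), and 10.23 and 10.10 against 11.50, 11.00 and 11.18 at GV (1.06 ± 0.19, adjusted p = 0.0984). The MII call of TC0900002645 was lost without WT MII replicate 1 (adjusted p = 0.0754). With the replicate number as a block, or with only the arrays compared in the fit, the MII calls of TC1000000237 and TC0900002645 were lost.

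The largest decreases of the mutant at MII were those of TC1200001839 and TC0600000199, on different codes with much the same course. TC1200001839 read 11.00 and 9.96 in WT MII against 6.81, 6.54 and 7.07 in Patl2-/- MII oocytes (-3.67 ± 0.45, adjusted p = 0.0211), with 10.13 and 9.82 against 10.69, 9.18 and 9.62 at GV (-0.14, adjusted p = 0.976). TC0600000199 read 10.74 and 9.21 against 6.82, 6.49 and 6.65 at MII (-3.33 ± 0.48, adjusted p = 0.0311), and 10.13 and 9.95 against 10.84, 9.55 and 9.69 at GV. In both, the 3 mutant MII arrays stood below all the other arrays, which overlapped. The difference of the genotype effect between stages had an adjusted p of 0.458 and 0.519. Without WT MII replicate 1 the MII calls were lost (adjusted p = 0.134 and 0.155), and leaving out any 1 Patl2-/- MII array also ended them (0.0539 to 0.101); for TC0600000199 either WT GV array (0.0526) or Patl2-/- GV replicate 3 (0.0586) did so too.

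In the average over both stages TC1200000659 followed TC1200000210 among the increases. It read 7.88 and 6.83 in WT GV against 9.32, 9.20 and 9.35 in Patl2-/- GV, and 5.77 and 6.53 in WT MII against 8.37, 7.93 and 7.59 in Patl2-/- MII oocytes (1.87 ± 0.25, adjusted p = 0.015, and 0.0548 without WT MII replicate 1). TC0400002561 followed TC0X00000003 among the decreases, with 9.13 and 10.99 in WT GV against 7.96, 8.43 and 7.41 in Patl2-/- GV, and 9.39 and 8.82 against 7.02, 7.09 and 7.04 at MII (-2.09 ± 0.36, adjusted p = 0.0313). Its call was lost on leaving out any array but WT GV replicate 1 or 2 or Patl2-/- GV replicate 2 (adjusted p up to 0.119, without WT MII replicate 1). Whether the genotype effect differed between stages gave no call for any member in limma, with a lowest adjusted p of 0.335, and none of the alternatives gave a call either. An unadjusted limma p under 0.05 was reached by 386 of 4149 members, beside 1787 of all 16316 clusters at 6 or above.

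**Figure D5:**
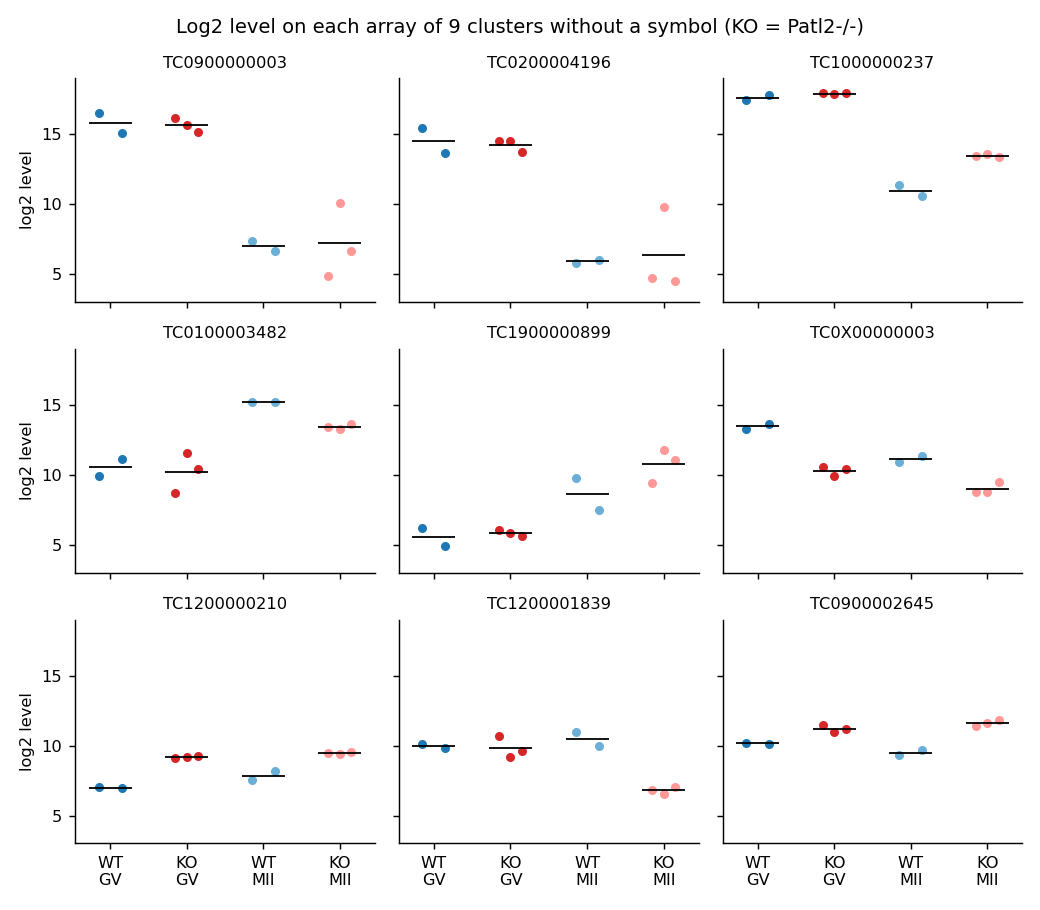
Log2 level (y axis) on each array for 9 clusters without a symbol, by group (x axis; KO is Patl2-/-, with 2 WT and 3 KO arrays per stage), with a line at the group mean. TC0900000003 and TC0200004196 fall by over 7 at MII in both genotypes with Patl2-/- MII replicate 2 highest (10.05 and 9.81), TC0X00000003 and TC1200000210 are separated by genotype at each stage, and TC1200001839 is lower in the mutant at MII (a stage difference that was not called, adjusted p = 0.458).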

How the data were processed

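Oocyte pools were hybridised to 10 mouse Clariom D arrays (Affymetrix). The authors normalised the whole set by RMA in Affymetrix Expression Console (its version and the genome build are not given in the sources used here), so the deposited values are on a log2 scale, with background removed, arrays quantile-normalised and probes combined per cluster. RMA makes the distributions of probe values alike and equal amounts of RNA were labelled, so the arrays do not measure a change of total RNA per oocyte. Cluster values were not fully alike in distribution. A further quantile normalization moved the median WT maturation difference of all clusters at 6 or above from -0.05 to 0.28. Apart from the arrays, the study reported less purified RNA per oocyte at MII than at GV. It found no significant difference between genotypes, assuming an even recovery of RNA. Fewer transcripts of a locus in all oocytes cannot be told apart from fewer oocytes with them. The number of arrays limits the precision.

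Control rows (6732) were left out, and 65956 transcript clusters were fitted with limma 3.58.1 in R 4.3.3 (1 mean per group, all 10 arrays, contrasts, eBayes, two-sided, Benjamini-Hochberg over all clusters). The call was an adjusted p under 0.05, and ± is the standard error of the fit. The moderated variance had 2.02 prior and 6 residual degrees of freedom. Members had no gene symbol in the platform annotation, counting a microRNA name as a symbol. Counts are over members with a mean level of at least 6. Families were single-linkage groups within 0.1 on every array at a level of 8 or above. The script was tested on simulated data.

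Printed ids are, in each pairwise comparison, the 2 called members per direction with the largest difference and no overlap; the same for the average over stages; the 4 highest levels; the 2 highest TS ids; and the 8 brightest members named in the study's tables, from which only names were taken. Some of these are not reported here. Others are marked where they appear. The members and the lists were chosen with earlier results of these data known. Alternatives were a replicate block, 2 rescalings, a robust variance trend, fits on fewer arrays or clusters, other level limits, the methods' threshold on fold and p, and each array left out. Neighbours in numbering use named ids, of which 99.7% of those found in RefSeq lie on the chromosome of their code. Computations used Python 3.11.15, pandas 2.3.3 and matplotlib 3.10.9.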

Additional observations from a re-analysis of the deposited data

How the results depend on the processing

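The count of members called for WT maturation (1153) became 161 with only the arrays compared and ran from 527 to 1242 over the leave-one-out fits, while that for Patl2-/- maturation (1474, range 1124 to 1501) stayed within 1.5 times under every alternative run. At GV the 10 genotype calls became 0 with the replicate number as a block, 4 with a robust variance trend, 0 with only the arrays compared, 42 with the fit restricted to clusters at 6 or above, 16 and 6 with level limits of 5 and 8, 63 at the methods' threshold on fold and p, and 0 to 14 with 1 array left out. At MII the 76 calls became 4 with the replicate block, 47, 0 and 223 under the next 3 settings, 361 at the methods' threshold, and 2 to 98 with 1 array left out. The average over both stages (164) became 40 with the replicate block, 454 with the restricted fit, and 44 to 182 with 1 array left out. Whether replicate numbers pair these samples is not known. Same-numbered arrays correlated at -0.13 to 0.247 in their deviations from the group means, and arrays of unlike number at -0.247 to 0.13. With 2 arrays in a WT group the deviations mirror each other, so these values cannot decide it. Counting each distinct profile once, an alternative chosen after seeing the data, left 902, 1191, 10, 75 and 163 calls. The share of members at 6 or above was 12.4% to 12.6% with 1 array left out. No called difference of a printed cluster changed sign under these alternatives, but a further quantile normalization moved the median WT difference from -0.28 to 0.04 for members and from -0.05 to 0.28 for all clusters at 6 or above. The cause of these changes was not tested, and 2 or 3 arrays per group limit the precision.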
